A study of Mus musculus with 38 samples.

Results

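Alas1, Fech, Hba-a1, Hmox1, Hamp2 and Mt1 are 6 genes that serve heme synthesis, oxygen carriage, heme breakdown, the control of iron and the binding of metals. They were taken by name, in a list drawn up with earlier results of these data known, and all 6 were present among the 10547 genes measured. Mouse liver sections were profiled with the GeoMx Digital Spatial Profiler, which counts barcoded probes released by light from chosen parts of a tissue section. The question put to these genes was how their levels differed between a control diet and a diet holding 0.1% DDC (diethoxycarbonyl dihydrocollidine), in WT mice and in mice whose myeloid cells lack TRAIL. The 38 samples are segments cut from 23 regions of interest (ROIs). A PanCK+ segment is the part of a periportal ROI that stained for keratins of the bile duct epithelium, and an IBA1+ segment is the part of a periportal or a parenchymal ROI that stained for a macrophage protein. Periportal ROIs were drawn about the ductular reaction, the spread of small proliferating ducts in an injured liver. The 4 groups, in the order WT on the control diet, WT on DDC, Trail Δmye on the control diet and Trail Δmye on DDC, held 3, 4, 4 and 5 PanCK+ segments, 2, 4, 4 and 5 periportal IBA1+ segments, and 1, 2, 2 and 2 parenchymal IBA1+ segments.

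Trail Δmye mice, written Trail.mye in the labels, carry floxed Trail alleles and Cre under the Lyz2 promoter, which is active in macrophages, monocytes and neutrophils. Mice of both genotypes started at 6 to 8 weeks of age and received their diet in rounds of 5 days, with 3 days of chow between rounds, over 21 days, and the experiment ended on day 22. Nothing in the labels ties a segment to a mouse, a sex or a slide. Segments of a group can share an animal, so the p-values over segments given here are too small to stand for animals and may measure only technical spread.

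Heme is made by a chain of enzymes that ALAS1 opens and ferrochelatase, the product of Fech, closes by placing iron in protoporphyrin. DDC is known for blocking ferrochelatase in the liver, so that protoporphyrin builds up and plugs small bile ducts, and heme normally holds ALAS1 down. Heme oxygenase 1 opens the heme ring and frees its iron, hepcidins from hepatocytes control how much iron enters the blood, and metallothioneins hold zinc and copper.

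Levels are given as Q3-normalized counts, which are counts scaled so that the 75th percentile of all genes is the same in each segment, and no level is compared between genes. Total counts ran from 20319 to 836971 per segment and moved with the groups: the periportal segments of control diet-fed WT mice held 23482 to 35208, those of DDC-fed Trail Δmye mice 158220 to 836971. The lowest count in the table is 1, and 27.2% of all values stood there. In control diet-fed WT mice 53.6% to 70.3% of genes were at 1 count, which was worth 3.50 or 5.25 Q3-normalized counts. ROI 035, of a DDC-fed Trail Δmye mouse, stood apart: the negative probe, which matches no gene, gave 43.1 counts in its PanCK+ and 27.8 in its IBA1+ segment, against 6.08 or less in the other 36 segments. In periportal ROIs, 7 of 10 cholangiocyte markers were higher in PanCK+ than in IBA1+ segments and 9 of 10 macrophage markers were lower, and 9 of 10 hepatocyte markers were lower as well. Hepatocyte RNA was therefore read in both classes, with summed Q3-normalized counts of the 10 hepatocyte markers from 949 to 7917 in PanCK+ and from 1122 to 13867 in periportal IBA1+ segments.

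In DDC-fed against control diet-fed Trail Δmye mice, Mt1 was higher and Hamp2 and Alas1 were lower, in PanCK+ and in periportal IBA1+ segments alike, while Fech, Hba-a1 and Hmox1 did not pass the test. These 3 of 6 genes were called in each class by edgeR's quasi-likelihood test (Benjamini-Hochberg adjusted p under 0.05 over all genes), where 2.10% of all genes were called in PanCK+ and 9.38% in periportal IBA1+ segments. The median log2 fold change of the 6 genes was 0.59 in PanCK+ segments, beside 0.18 for all genes, and -1.02 in periportal IBA1+ segments, beside 0.07. In WT mice edgeR called none of the 6 genes, while 0.910% of all genes were called in PanCK+ and 1.19% in periportal IBA1+ segments. The medians over the 6 genes were 0.01 and -0.99, beside -0.17 and -0.16 for all genes, and 0.01 and -0.96 without genes that stood at 1 count throughout a group (Hamp2 in both classes, Hmox1 in PanCK+ segments). Mt1 alone had an unadjusted p under 0.05 in each of these WT comparisons. DESeq2 and limma called none of the 6 in WT PanCK+ segments, and each called Mt1 in WT periportal IBA1+ segments. The interaction of diet and genotype was called for none of the 6 genes (0.114% of all genes in PanCK+, 0.0569% in periportal IBA1+ segments), so a difference between the genotypes in their response to DDC was not shown. Unadjusted p was under 0.05 for Alas1 and Hba-a1 in the PanCK+ interaction and for Hamp2 in the IBA1+ one. DESeq2 called no interaction, and limma called that of Hamp2 in periportal IBA1+ segments, where the WT values of Hamp2 were at 3 counts or fewer.

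**Figure D1:**
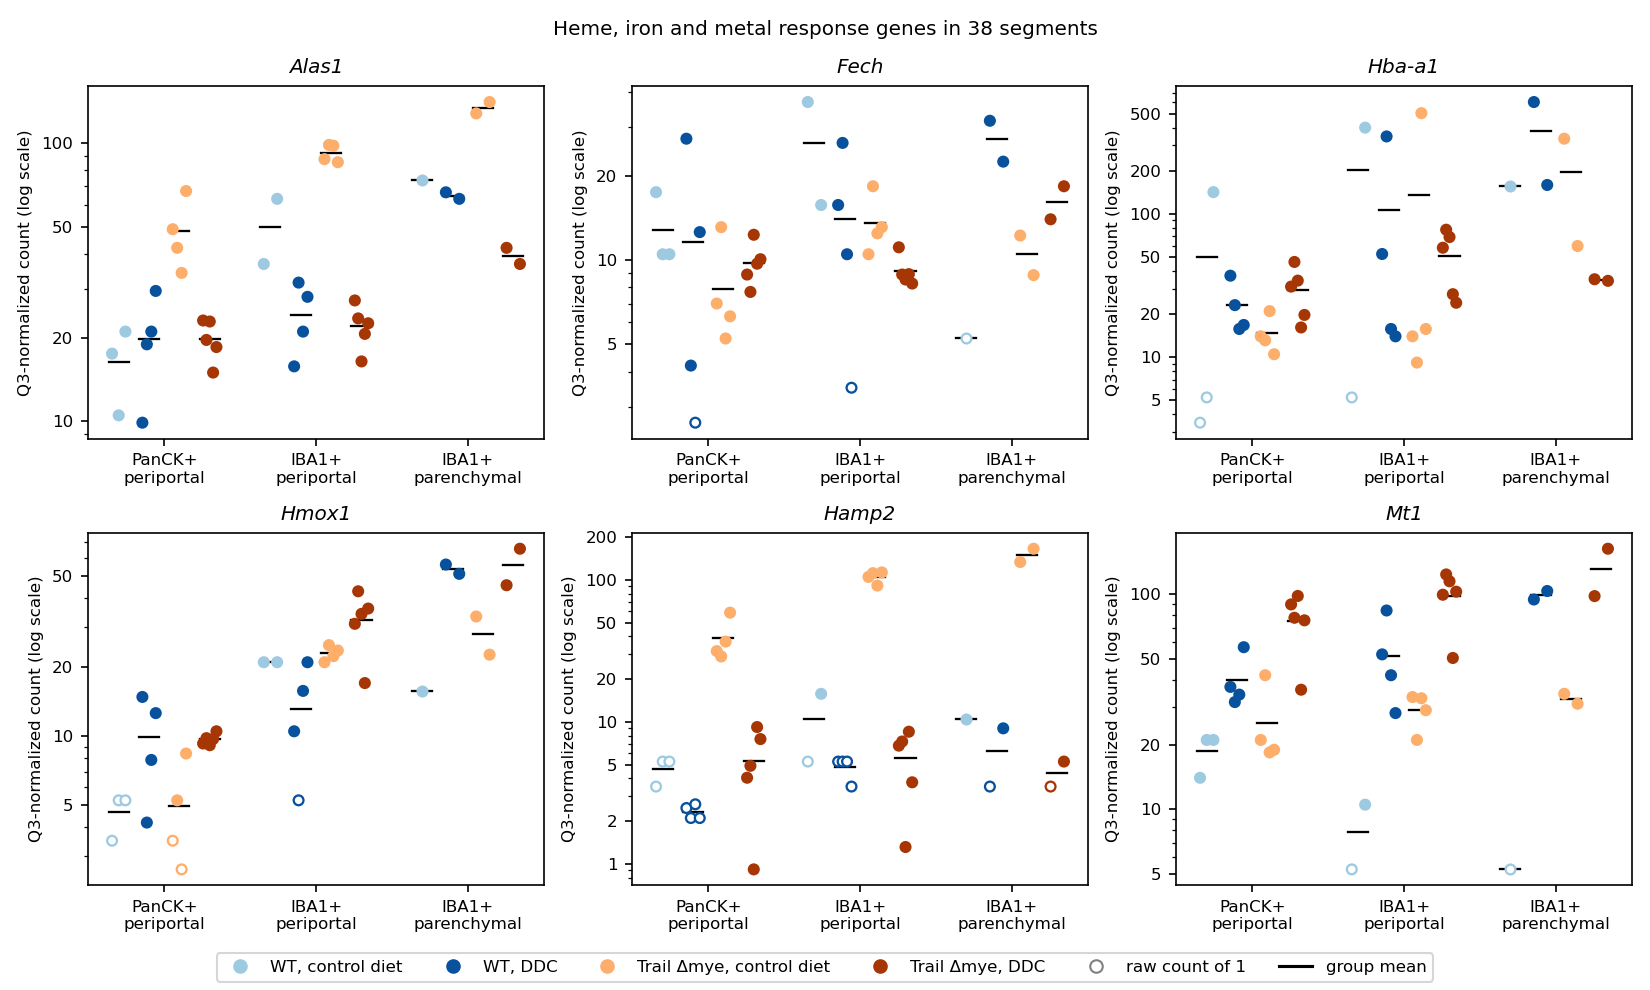
Q3-normalized counts of the 6 genes on a log axis, 1 point per segment, by segment class, genotype and diet, with a bar at the mean of each group. Hamp2 reached 28.9 or more in every segment of control diet-fed Trail Δmye mice and no more than 15.8 in any other segment, and Mt1 was 28.0 or more in every segment of DDC-fed mice.

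**Figure D2:**
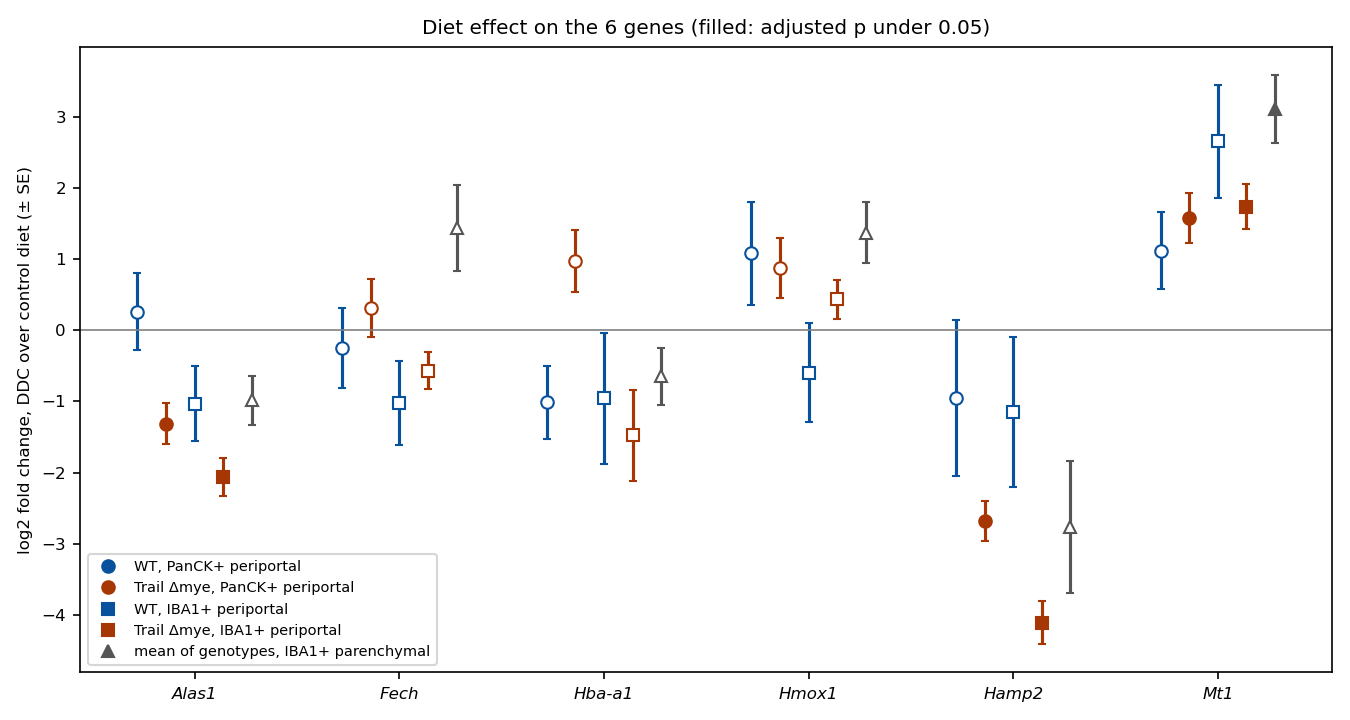
Log2 fold changes of the 6 genes on DDC over the control diet, with bars of 1 standard error and filled points where the adjusted p was under 0.05. Shown are each genotype in PanCK+ and periportal IBA1+ segments and the mean of genotypes in parenchymal IBA1+ segments. The periportal means of genotypes are not drawn. The filled points are Mt1 above 0 and Hamp2 and Alas1 below 0, and the WT points of Hamp2 compare groups at 3 counts or fewer.

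Alas1 encodes the enzyme that sets the pace of heme synthesis in hepatocytes, and it lies at chr9:106233455-106247954 (GRCm38). In the PanCK+ segments of control diet-fed Trail Δmye mice Alas1 was at 49.0, 42.0, 34.1 and 67.2 Q3-normalized counts, and on DDC at 23.0, 19.6, 22.8, 15 and 18.5. Periportal IBA1+ segments had 87.5, 98.5, 97.8 and 85.3 on the control diet and 27.2, 23.4, 16.4, 20.6 and 22.5 on DDC. Every DDC-fed segment of both classes was below every control segment of its class. The log2 fold change of Alas1 on DDC was -1.31 ± 0.29 in PanCK+ segments (SE, n = 4 and 5; edgeR adjusted p = 0.00205) and -2.07 ± 0.27 in periportal IBA1+ segments (edgeR adjusted p = 6.30e-08). The PanCK+ call was lost with limma (adjusted p = 0.0596), with all segments thinned to the smallest total (edgeR adjusted p = 0.442) and without ROI 029 (edgeR adjusted p = 0.0928). Within ROI 029 lay the highest PanCK+ value. The IBA1+ call was kept under every alternative run.

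In WT mice the same gene differed by less than could be told. WT PanCK+ segments had 17.5, 10.5 and 21.0 Q3-normalized counts of Alas1 on the control diet and 9.89, 18.9, 21.0 and 29.4 on DDC, and these groups overlapped. WT periportal IBA1+ segments had 36.8 and 63.0 on the control diet and 15.8, 31.5, 21.0 and 28.0 on DDC, without overlap but from counts of 3 to 12. Their log2 fold changes were 0.26 ± 0.54 (edgeR adjusted p = 0.973) and -1.03 ± 0.53 (edgeR adjusted p = 0.938). Averaged over the genotypes, Alas1 was lower on DDC in periportal IBA1+ segments by a log2 fold change of -1.55 ± 0.30 (edgeR adjusted p = 0.000223), a call that was lost without WT ROI 005 (edgeR adjusted p = 0.0811). Averaged the same way in PanCK+ segments it was -0.52 ± 0.32 (edgeR adjusted p = 0.650). The diet by genotype interaction of Alas1 was -1.58 ± 0.60 in PanCK+ segments and was not called (unadjusted p = 0.00994). On the control diet Alas1 was higher in Trail Δmye than in WT mice. The log2 fold changes, neither called, were 1.56 ± 0.49 in PanCK+ (edgeR adjusted p = 0.473) and 0.89 ± 0.44 in periportal IBA1+ segments. With filterByExpr the PanCK+ value was called (1.72, edgeR adjusted p = 0.00740). On DDC the same genotype differences were -0.02 ± 0.33 and -0.15 ± 0.39.

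In parenchymal IBA1+ segments Alas1 was at 128 and 140 Q3-normalized counts in Trail Δmye mice on the control diet and at 42.0 and 36.8 on DDC. The WT values were 73.5 on the control diet, from a single segment, and 66.5 and 63.0 on DDC. Over both genotypes the log2 fold change was -0.98 ± 0.34 (edgeR adjusted p = 0.287).

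Alas1 moved with hepatocyte RNA. Over the 38 segments its level correlated with the summed hepatocyte markers at r = 0.82, and the genes most like it were the hepatocyte genes Mbl2 (r = 0.84), Adh1 (0.83) and Alb (0.82), on the scale of log2 values in segments that share libraries and groups. Alb is itself among the summed markers. On DDC the median sum of the hepatocyte markers in Trail Δmye mice went from 10822 to 2771 in periportal IBA1+ and from 4276 to 1983 in PanCK+ segments, and 9 and 3 of the 10 markers were called lower. Set against that sum, Alas1 stood at a median of 8.45 per 1000 units of hepatocyte markers in control diet-fed (range 6.31 to 9.78) and 8.46 in DDC-fed Trail Δmye periportal IBA1+ segments (range 5.84 to 18.4). In PanCK+ segments it stood at 11.5 and 10.0 per 1000 units. The ranges on the 2 diets overlapped in both classes of Trail Δmye mice, where the Q3-normalized levels themselves did not. WT mice differed from this. Their periportal IBA1+ segments had 4.24 to 5.09 per 1000 units on the control diet and 6.51 to 14.5 on DDC, from Alas1 counts of 3 to 12. WT PanCK+ segments had medians of 5.03 (2.14 to 6.75) and 10.1 (3.48 to 14.1). These ratios were not tested. Fewer cells of a type and less RNA per cell cannot be told apart in these segments.

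**Figure D3:**
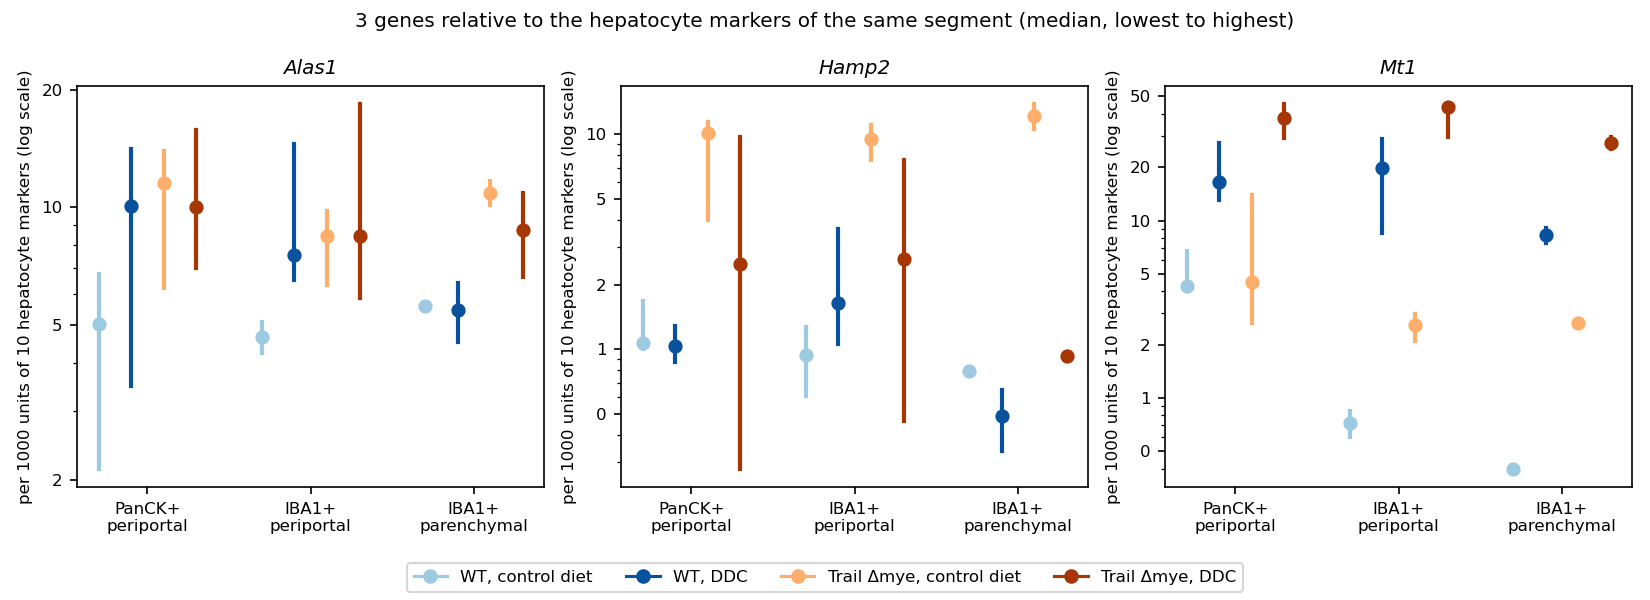
Levels of Alas1, Hamp2 and Mt1 per 1000 units of the summed Q3-normalized counts of 10 hepatocyte markers, on a log axis, by segment class, genotype and diet, with a point at the median of each group and a line from its lowest to its highest segment. In periportal IBA1+ segments of Trail Δmye mice the medians are 8.45 and 8.46 for Alas1, 9.46 and 2.62 for Hamp2 and 2.57 and 43.8 for Mt1, on the control diet and on DDC.

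Fech, the target of DDC, was called in no diet, genotype, class or location comparison. In PanCK+ segments of Trail Δmye mice it was at 7.00, 13.1, 5.25 and 6.30 Q3-normalized counts on the control diet and at 8.89, 7.70, 12.3, 9.72 and 10.1 on DDC. Periportal IBA1+ segments of these mice had 10.5, 18.4, 12.5 and 13.1, then 11.1, 8.89, 8.53, 8.92 and 8.25. The groups overlapped in each class, with log2 fold changes of 0.31 ± 0.41 (edgeR adjusted p = 0.879) and -0.57 ± 0.26 (edgeR adjusted p = 0.183). WT segments spread more widely, from 2.63 to 27.2 in DDC-fed PanCK+ and from 3.50 to 26.3 in DDC-fed periportal IBA1+ segments, on counts of 1 to 11. In parenchymal IBA1+ segments Fech was at 12.3 and 8.85 on the control diet and 14 and 18.4 on DDC in Trail Δmye mice, and at 5.25 (1 count) and then 31.5 and 22.5 in WT mice. Averaged over genotypes this was 1.44 ± 0.60 on the log2 scale (edgeR adjusted p = 0.577). The diet response of Fech in periportal minus parenchymal IBA1+ segments was -2.24 ± 0.65 and was not called by edgeR (unadjusted p = 0.00117, adjusted p = 0.396), while limma called it (adjusted p = 0.0431). No gene followed Fech closely over the segments, the most similar being Rcan1 at r = 0.59. Its r with the summed hepatocyte markers was 0.31. Per 1000 units of these markers, Trail Δmye periportal IBA1+ segments had 0.757 to 1.83 of Fech on the control diet and 2.39 to 7.95 on DDC. In Trail Δmye PanCK+ segments the medians were 1.38 (0.885 to 4.36) and 3.93 (3.77 to 10.2). In WT mice the diets overlapped on this scale in both periportal classes, and the ratios were not tested.

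The listed heme synthesis genes, Alas1 and Fech among them, were measured in full, 9 of 9 genes. In Trail Δmye periportal IBA1+ segments Alas1 and Cpox were called lower and none higher, with a list median of -0.50 on the log2 scale against 0.07 for all genes. Cpox, coproporphyrinogen oxidase, acts late in the chain, and its mean went from 19.7 ± 5.14 to 6.73 ± 2.17 Q3-normalized counts (SD, n = 4 and 5), a log2 fold change of -1.56 ± 0.25 (edgeR adjusted p = 3.88e-06). After thinning to the smallest total the value of Cpox was -0.99 ± 0.71 and the call was lost (edgeR adjusted p = 0.641). In Trail Δmye PanCK+ segments Alas1 alone of the 9 was called, the list median was -0.19 and that of all genes 0.18. The WT comparisons called none of the 9.

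Hba-a1, an alpha globin gene at chr11:32283672-32284486 (GRCm38), varied more between ROIs than between diets. Livers had been flushed with PBS through the portal vein, and globin RNA comes from young red cells. In periportal IBA1+ segments of control diet-fed Trail Δmye mice Hba-a1 was at 14, 9.19, 504 and 15.8 Q3-normalized counts, with the high value in ROI 028, and on DDC at 58.1, 77.6, 68.9, 27.5 and 24.0. Control diet-fed WT mice had 5.25 in ROI 003 and 399 in ROI 005, and DDC-fed WT mice had 52.5, 347, 15.8 and 14. A single ROI in each of these 3 groups lay far above the others.

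PanCK+ segments showed the same ROI 005, with 142 Q3-normalized counts of Hba-a1 against 3.50 and 5.25 in the other control diet-fed WT segments. DDC-fed WT PanCK+ segments had 37.1, 23.1, 15.8 and 16.8. In Trail Δmye PanCK+ segments Hba-a1 was at 14, 13.1, 21.0 and 10.5 on the control diet and 31.1, 46.2, 34.3, 16.2 and 19.7 on DDC, with overlap. No diet comparison of Hba-a1 was called, with log2 fold changes of 0.97 ± 0.44 in Trail Δmye PanCK+ (edgeR adjusted p = 0.341) and -1.48 ± 0.64 in Trail Δmye periportal IBA1+ segments (edgeR adjusted p = 0.155). The latter value turned to 1.96 ± 0.70 without ROI 028 (edgeR adjusted p = 0.0801) and to 0.48 with limma (adjusted p = 0.816), and it was called by edgeR with every count lowered by 1 (-1.48, adjusted p = 0.000250) and with the compared groups alone (-1.48, adjusted p = 0.000231). In WT mice the uncalled diet values of Hba-a1, -1.01 in PanCK+ and -0.96 in periportal IBA1+ segments, turned to 2.41 and 4.28 without ROI 005. Averaged over genotypes in PanCK+ segments the value was -0.02 ± 0.36, and without ROI 005 it turned to 1.69 ± 0.47 (edgeR adjusted p = 0.0253). Parenchymal IBA1+ segments gave 158 in the WT control segment, 602 and 159 in DDC-fed WT mice, and in Trail Δmye mice 334 and 59.7 on the control diet and 35.0 and 34.1 on DDC.

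The beta globin genes followed Hba-a1 over the 38 segments, Hbb-b1 at r = 0.89 and Hbb-b2 at r = 0.85, and the next gene was Epas1 at 0.63. These 3 were the only globin genes measured of 9 listed. Hbb-b2 was called lower on DDC in Trail Δmye periportal IBA1+ segments (log2 fold change -2.09, edgeR adjusted p = 0.00129), and without ROI 028 the value turned to 1.03 (edgeR adjusted p = 0.374). Its call was also lost with limma (-0.24, adjusted p = 0.888) and after thinning (-0.89, edgeR adjusted p = 0.647). Of 11 erythroid marker genes listed, Alas2, the red cell form of ALAS, was the single one measured, at 0.808 to 15.8 Q3-normalized counts.

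Hmox1, at chr8:75093618-75100593 (GRCm38), encodes the inducible heme oxygenase, which macrophages use to take apart the heme of old red cells. In PanCK+ segments of Trail Δmye mice it was at 3.50, 5.25, 2.63 and 8.40 Q3-normalized counts on the control diet and at 9.29, 9.80, 9.13, 9.72 and 10.5 on DDC, so that the groups did not overlap, but the difference of 0.87 ± 0.42 was not called (edgeR adjusted p = 0.483). In periportal IBA1+ segments of Trail Δmye mice it was at 21.0, 24.9, 22.3 and 23.6 and then at 30.9, 42.8, 34.1, 17.0 and 36.0. The single DDC-fed value below the control group was that of ROI 035, and the log2 fold change was 0.44 ± 0.27 (edgeR adjusted p = 0.381).

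All 3 WT PanCK+ segments on the control diet stood at 1 count of Hmox1, and those on DDC had 14.8, 4.20, 7.88 and 12.6 Q3-normalized counts, a mean under the floor of 3 counts per segment, so that no fold is given. WT periportal IBA1+ segments had 21.0 and 21.0, then 10.5, 5.25, 15.8 and 21.0. In parenchymal IBA1+ segments the DDC-fed values, 56.0 and 51.0 in WT and 45.5 and 65.7 in Trail Δmye mice, lay above the control values, 15.8 in WT and 33.3 and 22.7 in Trail Δmye mice. That difference was 1.38 ± 0.43 on the log2 scale and was not called by edgeR (adjusted p = 0.154). It was called by edgeR with total counts alone (1.68) and with filterByExpr (1.53), and not by DESeq2 or limma.

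Over the segments Hmox1 followed genes of the macrophage lysosome and iron store, Ctsb (cathepsin B, r = 0.85), Lgmn (legumain, 0.85) and Ftl1 (ferritin light chain, 0.84), and the summed macrophage markers at r = 0.84. Of the genes of heme breakdown and transport, Hmox1 among them, 14 of 15 listed were measured. In Trail Δmye PanCK+ segments Hp, the hemoglobin-binding plasma protein haptoglobin, was called higher (log2 fold change 1.89, edgeR adjusted p = 9.41e-05) and none lower, with a list median of 0.06 against 0.18 for all genes. In Trail Δmye periportal IBA1+ segments Cd163, the macrophage receptor for haptoglobin with hemoglobin, was called lower (-2.12, edgeR adjusted p = 9.28e-07), as was Ugt1a1, which conjugates bilirubin (-1.34, edgeR adjusted p = 0.0138), and none was higher. The list median there was 0.06 against 0.07 for all genes, and the Ugt1a1 call was lost with limma (adjusted p = 0.0583), with every count lowered by 1 (edgeR adjusted p = 0.142), after thinning (edgeR adjusted p = 0.796) and without ROI 029 (edgeR adjusted p = 0.281). Of 10 macrophage markers, Clec4f (-3.61), Cd5l (-2.40) and Vsig4 (-1.96), known from Kupffer cells, the resident macrophages of the liver, were called lower in the same comparison and none was higher, while the summed markers ranged from 563 to 867 on the control diet and from 378 to 898 on DDC. In WT periportal IBA1+ segments Clec4f (-3.33) and Cd5l (-2.02) were called lower, with sums of 678 to 1229 and 352 to 560. Their part in the values of Cd163 and of Slc40a1, described further on, was not tested. In WT mice none of the 14 was called in either class.

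Hamp2, at chr7:30922372-30924181 (GRCm38), is a duplicate of the hepcidin gene Hamp, and its own part in iron control is less clear than that of Hamp. It was high in a single group, control diet-fed Trail Δmye mice. Their PanCK+ segments had 31.5, 28.9, 36.8 and 58.8 Q3-normalized counts, their periportal IBA1+ segments 105, 112, 91.3 and 113, and their parenchymal IBA1+ segments 134 and 166. On DDC the same genotype had 4.04, 4.90, 0.913, 9.19 and 7.56 in PanCK+, 6.80, 7.27, 1.31, 8.52 and 3.75 in periportal IBA1+ and 3.50 and 5.25 in parenchymal IBA1+ segments. Of these values 0.913, 1.31 and 3.50 lay below the negative probe of their segments (1.40, 1.45 and 4.32). The parenchymal values on DDC came from 1 and 2 counts. The diets did not overlap in any class, and the means differed by log2 fold changes of -2.68 ± 0.28 in PanCK+ (edgeR adjusted p = 1.90e-12) and -4.11 ± 0.30 in periportal IBA1+ segments (edgeR adjusted p = 2.18e-15). Both calls were kept under every alternative run.

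WT mice had Hamp2 at 1 count in all 7 PanCK+ segments and in all 4 DDC-fed periportal IBA1+ segments, and at 1 and 3 counts in the 2 control diet-fed ones. The WT parenchymal segments had 2 counts on the control diet and 1 and 6 on DDC. No diet fold is given for WT PanCK+ segments, since both groups are at the floor. On the control diet Hamp2 was higher in Trail Δmye than in WT mice, in PanCK+ segments by at least 2.78-fold, with 3 counts per WT segment as the floor (fitted log2 fold change 3.14 ± 0.62, edgeR adjusted p = 0.00166). In periportal IBA1+ segments the log2 fold change was 3.30 ± 0.62 (edgeR adjusted p = 0.00164). Hamp2 was the 1 gene of the 6 called between the genotypes on the control diet, where 0.218% of all genes were called in PanCK+ and 0.199% in periportal IBA1+ segments. Alas1 and Hba-a1 in PanCK+ and Alas1 and Mt1 in periportal IBA1+ segments had an unadjusted p under 0.05 as well. The median over the 6 genes was 0.34 in PanCK+ segments against -0.06 for all genes, and 0.51 in periportal IBA1+ segments against -0.08.

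The genotype calls rested on few WT counts. In PanCK+ segments the call was lost with DESeq2 (adjusted p = 0.0573), after thinning (edgeR adjusted p = 0.0777) and without WT ROI 001 (edgeR adjusted p = 0.107), and in periportal IBA1+ segments without WT ROI 003 (edgeR adjusted p = 0.250) or 005 (edgeR adjusted p = 0.0919). WT periportal segments stood at 3 counts or fewer of Hamp2 on both diets, so no size is given for the genotype interaction of the diet response or for the diet difference averaged over genotypes, which contain that contrast. The averaged difference was called in periportal IBA1+ segments (edgeR adjusted p = 0.00407), and this call was lost without WT ROI 005 (edgeR adjusted p = 0.909) and after thinning (edgeR adjusted p = 0.512).

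A Y-linked transcript moved the opposite way. Gm21783, a predicted gene on the Y chromosome, was at 2.63 to 6.30 Q3-normalized counts in the PanCK+ and 1.31 to 5.25 in the periportal IBA1+ segments of control diet-fed Trail Δmye mice, from raw counts of 1 to 6. WT mice on that diet had 98.0 to 126 and 26.3 to 63.0, and DDC-fed Trail Δmye mice 22.1 to 61.0 and 25.6 to 97.8. It was called lower in Trail Δmye than in WT mice on the control diet (log2 fold change -4.76, edgeR adjusted p = 7.09e-10, in PanCK+ and -3.72, edgeR adjusted p = 0.00147, in periportal IBA1+ segments), and over the 38 segments it correlated with Hamp2 at r = -0.83. The Y-linked genes Ddx3y, Eif2s3y and Uty had 1 to 3 counts in the PanCK+ segments of control diet-fed mice of both genotypes, where depth was low. In deeper segments of control diet-fed Trail Δmye mice Uty was at 2.63 to 11.8 Q3-normalized counts in periportal IBA1+ segments. In their parenchymal IBA1+ segments Uty was at 5.25 to 7.19, from 9 to 13 raw counts. Periportal IBA1+ segments of DDC-fed Trail Δmye mice had 4.50 to 6.14 of Uty. In the same control diet-fed parenchymal segments Ddx3y was at 2.21 to 2.92 and Eif2s3y at 2.76 to 2.92. Ddx3y and Eif2s3y lay below the negative probe there (3.20 and 3.36), and Uty lay above it. Parenchymal IBA1+ segments of DDC-fed Trail Δmye mice had 15.8 to 21.0 of Eif2s3y, from 6 raw counts. In periportal IBA1+ segments of Trail Δmye mice Eif2s3y overlapped between the diets, at 3.94 to 7.00 and 3.75 to 10.3. Ddx3y was called higher on DDC in Trail Δmye periportal IBA1+ segments (log2 fold change 1.53, edgeR adjusted p = 0.00250), at 1.31 to 9.19 Q3-normalized counts on the control diet and 6.80 to 11.2 on DDC. Hamp2 RNA is known to differ between male and female mouse livers, the labels give no sex, and the part of sex in the Hamp2 values was not tested. The same control diet-fed Trail Δmye segments are the baseline of every Trail Δmye diet comparison given here, those of Alas1 and Mt1 included. The part of sex in those comparisons was not tested either.

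Set against hepatocyte RNA, the medians of Hamp2 still differed between the diets. Per 1000 units of hepatocyte markers, Hamp2 had medians of 9.46 (7.57 to 11.1) on the control diet and 2.62 (0.467 to 7.59) on DDC in Trail Δmye periportal IBA1+ segments, and 10.2 (3.98 to 11.4) and 2.50 (0.279 to 9.68) in PanCK+ segments. The diets overlapped on this scale in both classes, in periportal IBA1+ segments at a single DDC-fed segment. That segment was of ROI 035, as was the PanCK+ segment at 9.68. Their Hamp2 levels of 8.52 and 9.19 Q3-normalized counts stood beside 5.51 and 5.66 for the negative probe. ROI 035 also gave the highest values of Alas1 and Fech on this scale in both classes of DDC-fed Trail Δmye mice. The genes most like Hamp2 over the segments were Thrsp (r = 0.92), Rgs16 (0.87) and Cyp2c67 (0.86).

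The paralog Hamp, the gene of the iron hormone hepcidin, was measured at 22.5 or more Q3-normalized counts in every periportal segment and did not share the pattern (r = 0.32 with Hamp2). In periportal IBA1+ segments of Trail Δmye mice its mean went from 180 ± 34.5 on the control diet to 49.2 ± 19.9 on DDC (SD, n = 4 and 5), a log2 fold change of -1.89 ± 0.32 (edgeR adjusted p = 2.02e-05). Per 1000 units of hepatocyte markers Hamp had medians of 15.8 and 20.3. In Trail Δmye PanCK+ segments the log2 fold change of Hamp was -0.69 ± 0.32 (edgeR adjusted p = 0.386). Because the genes are close copies, probes of one could read RNA of the other, and the difference between their patterns across the groups is a measurement of the probes as deposited.

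The promoters of both genes are shown because 2 near-identical sequences stood over genes with different patterns. They are from RefSeq (GRCm38.p6), both on the minus strand, 250 bases each before the start of the gene, Hamp2 at chr7:30924182-30924431 and Hamp at chr7:30944030-30944279. Capitals mark TTCNNNGAA, the letters of a STAT site, and GGCGCC, the core of a BMP-responsive element, each searched on both strands.
Hamp2: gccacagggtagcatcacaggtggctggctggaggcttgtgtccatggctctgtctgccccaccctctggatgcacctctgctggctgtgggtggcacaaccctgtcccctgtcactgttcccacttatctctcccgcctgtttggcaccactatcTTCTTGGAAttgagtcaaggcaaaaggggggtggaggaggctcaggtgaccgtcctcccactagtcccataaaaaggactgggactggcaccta
Hamp: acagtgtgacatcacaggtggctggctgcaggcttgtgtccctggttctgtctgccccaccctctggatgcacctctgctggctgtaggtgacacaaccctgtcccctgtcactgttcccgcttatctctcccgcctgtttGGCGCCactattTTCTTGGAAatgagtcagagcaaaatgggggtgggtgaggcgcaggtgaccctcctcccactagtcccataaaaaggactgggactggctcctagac
The aligned windows were identical at 227 of 253 columns (89.7%). Both held the STAT letters TTCTTGGAA, in Hamp2 at 94 to 86 and in Hamp at 97 to 89 bases before the start. Hamp held GGCGCC at 109 to 104 bases before its start and Hamp2 did not, the difference being G106A (the Hamp base, its position before the Hamp start, the Hamp2 base). Of 32851 promoter windows of the same length, 7.02% held TTCNNNGAA and 9.59% held GGCGCC. Such matches describe letters, and no binding was measured.

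Among iron handling genes, 29 of 30 listed were measured, and in Trail Δmye periportal IBA1+ segments 2 were called higher and 4 lower on DDC. Lcn2, which binds iron-carrying siderophores, was higher (log2 fold change 2.67, edgeR adjusted p = 2.28e-07), as was Fth1, the ferritin heavy chain (0.90, edgeR adjusted p = 0.0494). The Fth1 call was lost with TMM factors (edgeR adjusted p = 0.150), with limma (adjusted p = 0.118), after thinning (edgeR adjusted p = 0.208) and without most of the single segments when each was left out in turn. Hamp2 and Hamp were the lowest of the 4, and Slc40a1, the iron exporter ferroportin (-1.49, edgeR adjusted p = 6.14e-05), and Tmprss6, a protease that holds hepcidin down (-1.20, edgeR adjusted p = 0.000750), were the others. The list median was -0.18 beside 0.07 for all genes. In Trail Δmye PanCK+ segments Lcn2 (3.48, edgeR adjusted p = 7.30e-11) was called higher and Hamp2 lower, with a list median of 0.53 beside 0.18. In WT mice Lcn2 was called higher in both periportal classes. Its WT IBA1+ call was lost after thinning (edgeR adjusted p = 0.0515) and without ROI 003 (edgeR adjusted p = 0.135), 005 (edgeR adjusted p = 0.344) or 013 (edgeR adjusted p = 0.0609). In WT IBA1+ segments Slc40a1 was called lower, from 81.4 ± 3.71 to 11.8 ± 5.03 Q3-normalized counts (SD, n = 2 and 4).

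Mt1, at chr8:94178883-94180327 (GRCm38), encodes metallothionein 1, a small cysteine-rich protein that binds zinc and copper and is switched on by metals through MTF1, by glucocorticoids and by inflammation. It was higher on DDC in each segment class. In PanCK+ segments of Trail Δmye mice Mt1 was at 21.0, 42.0, 18.4 and 18.9 Q3-normalized counts on the control diet and at 89.7, 77.7, 98.2, 36.0 and 75.6 on DDC, where the lowest DDC-fed value is that of ROI 035. The periportal IBA1+ segments had 33.3, 21.0, 32.8 and 28.9 and then 99.5, 124, 115, 50.5 and 103. ROI 035 was again the lowest, above all the control segments of its class. The log2 fold changes were 1.58 ± 0.35 in PanCK+ (edgeR adjusted p = 0.00245) and 1.74 ± 0.32 in periportal IBA1+ segments (edgeR adjusted p = 7.14e-05).

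WT mice started from fewer counts. Their PanCK+ segments had 14, 21.0 and 21.0 Q3-normalized counts of Mt1 on the control diet and 37.1, 31.5, 34.1 and 56.7 on DDC, and their periportal IBA1+ segments 5.25 and 10.5 and then 52.5, 84.0, 42.0 and 28.0. The diets did not overlap in either class, but neither difference was called by edgeR, with log2 fold changes of 1.12 ± 0.54 (adjusted p = 0.723) and 2.66 ± 0.80 (adjusted p = 0.0970). The periportal IBA1+ difference was called with DESeq2 (adjusted p = 0.0286), with limma (adjusted p = 0.000235) and by edgeR without ROI 035 (adjusted p = 0.0401). The interaction of diet and genotype for Mt1 was 0.46 ± 0.68 in PanCK+ and -0.91 ± 0.94 in periportal IBA1+ segments, neither called.

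Averaged over genotypes, Mt1 was called higher on DDC in all 3 classes, by log2 fold changes of 1.35 ± 0.32 in PanCK+ (edgeR adjusted p = 0.00370), 2.20 ± 0.41 in periportal IBA1+ (edgeR adjusted p = 0.000140) and 3.11 ± 0.48 in parenchymal IBA1+ segments (edgeR adjusted p = 6.16e-06). These calls and those in Trail Δmye mice were kept under every alternative run. No run left out the single control diet-fed WT parenchymal segment, which stood at 1 count of Mt1 and enters the value of 3.11. Parenchymal values were 34.4 and 31.0 on the control diet and 98.0 and 163 on DDC in Trail Δmye mice, and 1 count on the control diet and 94.5 and 104 on DDC in WT mice, there at least 6.29-fold higher with 3 counts as the floor. In these averages Mt1 was the 1 gene of the 6 called in PanCK+ (3.15% of all genes) and parenchymal IBA1+ segments (0.910%), and was called with Hamp2 and Alas1 in periportal IBA1+ segments (4.22%). The medians over the 6 genes were 0.01, 0.36 and -1.01, beside 0.02, -0.20 and 0.00 for all genes, and 0.01, -0.81 and -0.79 without genes at 1 count throughout a group. Per 1000 units of hepatocyte markers Mt1 had medians of 2.57 and 43.8 in Trail Δmye periportal IBA1+ and 4.53 and 37.9 in PanCK+ segments on the control diet and on DDC, higher on DDC while the marker sum was lower. Fibroblast markers rose with it: 3 of 10 were called higher on DDC in PanCK+ and 6 of 10 in periportal IBA1+ segments of Trail Δmye mice, and 4 of 10 in each class of WT mice. Their sum ranged from 102 to 166 and then 208 to 521 Q3-normalized counts in Trail Δmye PanCK+, and from 98.0 to 249 and then 654 to 1573 in Trail Δmye periportal IBA1+ segments, and over the 38 segments it correlated with Mt1 at r = 0.58. In parenchymal IBA1+ segments, where Mt1 was called higher as well, none of the 10 was called, with sums of 110 to 134 on the control diet and 141 to 256 on DDC. The part of fibroblast RNA in the periportal values of Mt1 was not tested.

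Mt2, the neighbouring metallothionein gene, was the gene most like Mt1 over the segments (r = 0.88), followed by Gpx4 (0.85) and Rpl23 (0.78). In Trail Δmye mice Mt2 went from 19.9 ± 13.8 to 58.3 ± 17.7 Q3-normalized counts in PanCK+ (log2 fold change 1.47 ± 0.37, edgeR adjusted p = 0.00931) and from 18.9 ± 6.76 to 76.0 ± 22.9 in periportal IBA1+ segments (1.98 ± 0.35, edgeR adjusted p = 3.13e-05; SD, n = 4 and 5). Of 13 metal response genes listed, which include the factor MTF1 and zinc transporters, 10 were measured, and Mt1 and Mt2 were the only ones called in either class of Trail Δmye mice, and none of the 10 was called in WT mice. The Mt2 call in PanCK+ segments was lost with TMM factors (edgeR adjusted p = 0.0727), with DESeq2 (adjusted p = 0.0988) and without ROI 026 (edgeR adjusted p = 0.0913) or 028 (edgeR adjusted p = 0.116). The list medians, 0.00 in PanCK+ and -0.05 in periportal IBA1+ segments, were below those of all genes, 0.18 and 0.07.

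The promoters of the metallothionein genes are shown because these genes rose together. They are from RefSeq (GRCm38.p6) on the plus strand, the last 30 bases before the Mt1 start of RefSeq's promoter table, which lies inside the gene span given above, at chr8:94179059-94179088 and the 250 bases before the start of Mt2 at chr8:94172368-94172617. Capitals mark the core letters of a metal response element, TGCACNC or TGCGCNC, on either strand.
Mt1: cccgctgTGCACACtggcgctccagggagc
Mt2: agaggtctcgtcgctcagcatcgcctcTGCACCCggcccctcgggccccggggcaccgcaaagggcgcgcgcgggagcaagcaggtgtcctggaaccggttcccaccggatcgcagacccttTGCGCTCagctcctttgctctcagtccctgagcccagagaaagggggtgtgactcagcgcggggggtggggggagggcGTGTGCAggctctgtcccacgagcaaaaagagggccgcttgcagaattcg
Mt1 held 1 core at 23 to 17 bases before the start, and no other in its window of 250 bases. Of the 32851 promoter windows, 21.4% reach that number. The Mt1 window lies partly inside the gene span, and bases after its start were not searched. Its number of cores can therefore not be read as that of the whole Mt1 promoter or set against that of Mt2. Mt2 held 3 cores, the last of them read on the minus strand, and 1.26% of the windows hold as many. It also held a match to the antioxidant response core TGACNNNGC, which 10.2% of windows hold, at 79 to 71 bases before its start.

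Among targets and regulators of NRF2, the factor that answers oxidative stress, 11 of 14 listed genes were measured. On DDC the glutathione transferase genes Gstm3 (log2 fold changes 2.23 and 2.32) and Gstm1 (1.62 and 1.38) were called higher in PanCK+ and periportal IBA1+ segments of Trail Δmye mice, Osgin1 (1.01) in the IBA1+ ones, and none lower. In WT mice none of the 11 was called in either class. The Trail Δmye list medians were 0.63 and 0.43 beside 0.18 and 0.07 for all genes.

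**Figure D4:**
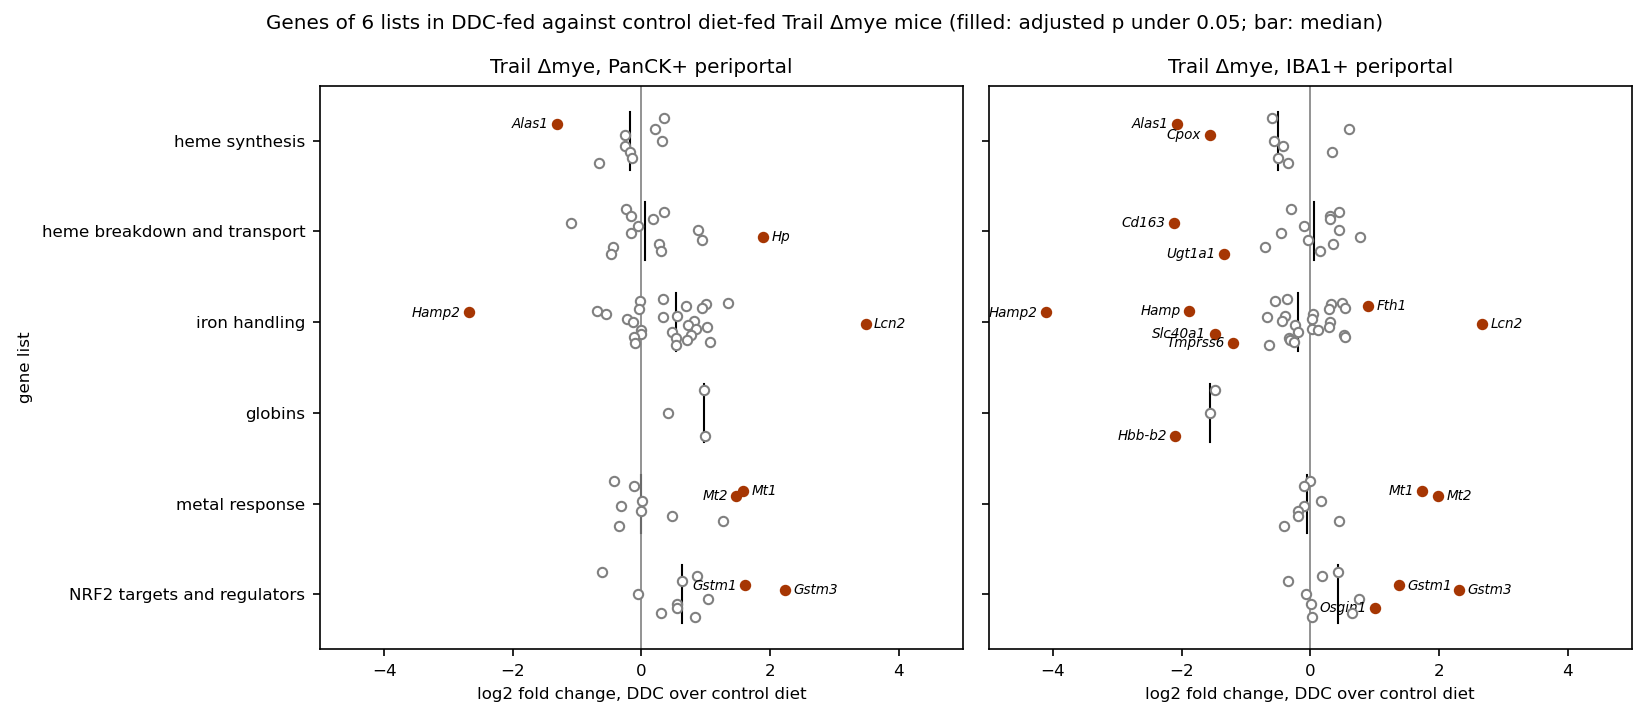
Log2 fold changes on DDC over the control diet in Trail Δmye PanCK+ and periportal IBA1+ segments, 1 point per measured gene of 6 lists, filled where the adjusted p was under 0.05, with a bar at the list median. Called genes are few in each list: Mt1 and Mt2 of 10 metal response genes, and Alas1 and Cpox of 9 heme synthesis genes in IBA1+ segments.

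On DDC none of the 6 genes was called between Trail Δmye and WT mice by edgeR, DESeq2 or limma, in PanCK+ segments (0.152% of all genes called by edgeR) or periportal IBA1+ segments (0.0190%). Unadjusted p was under 0.05 for 2 of the 6 in each class, Mt1 and Hamp2 in PanCK+ and Mt1 and Hmox1 in IBA1+ segments. Mt1 was higher in Trail Δmye PanCK+ segments by a log2 fold change of 0.92 ± 0.32 (edgeR adjusted p = 0.316), and without ROI 035 by 1.11 ± 0.25 (edgeR adjusted p = 0.00905). Its groups, 31.5 to 56.7 Q3-normalized counts in WT and 36.0 to 98.2 in Trail Δmye mice, overlapped through ROI 035 alone. Hmox1 in periportal IBA1+ segments was at 5.25 to 21.0 in WT and 17.0 to 42.8 in Trail Δmye mice (1.16 ± 0.43, edgeR adjusted p = 1.00).

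PanCK+ and IBA1+ segments of the same 15 periportal ROIs were set against each other in a fit with the ROI as a block, since both segments of an ROI are 1 piece of tissue. Hmox1, Hba-a1 and Alas1 were called lower in PanCK+ segments, 3 of 6 genes where 4.91% of all genes were called, and the median log2 fold change of the 6 was -0.81 against -0.09 for all genes. DESeq2 called 2 of the 6 and limma 4, with Hamp2 lower in PanCK+ segments (-0.76, limma adjusted p = 0.00386). In 5 of the 15 ROIs, all 4 of DDC-fed WT mice among them, both segments stood at 1 count of Hamp2. There the difference that limma read is that of the scaling factors. Hmox1 differed by -1.53 ± 0.30 (edgeR adjusted p = 0.000177) and was higher in the IBA1+ segment of 14 of 15 ROIs, a call that was kept under every alternative run. Alas1 differed by -0.77 ± 0.21 (edgeR adjusted p = 0.0133), higher in IBA1+ segments of 13 of 15 ROIs, and this call was lost with total counts alone (edgeR adjusted p = 0.0823), after thinning (edgeR adjusted p = 0.547) and without ROI 003 (edgeR adjusted p = 0.0789) or 005 (edgeR adjusted p = 0.226). Hba-a1 differed by -1.72 ± 0.23 (edgeR adjusted p = 3.76e-08), higher in IBA1+ segments of 12 of 15 ROIs. That call was lost with DESeq2 (-0.95, adjusted p = 0.121) and without ROI 005 (-1.37 ± 0.84, edgeR adjusted p = 0.973).

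Mt1 was higher in the IBA1+ segment of 11 of 15 ROIs, while the fitted difference, PanCK+ minus IBA1+, was 0.12 ± 0.29 (edgeR adjusted p = 1.00). Hamp2 was higher in the IBA1+ segment of 8 ROIs and in the PanCK+ segment of 2, and 5 ROIs had both segments at 1 count. Fech differed by -0.56 ± 0.26 (edgeR adjusted p = 0.375). Whether the class difference itself changed with diet was called for none of the 6 genes by edgeR, DESeq2 or limma (0.446% of all genes called by edgeR), with Alas1 the 1 gene at an unadjusted p under 0.05.

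**Figure D5:**
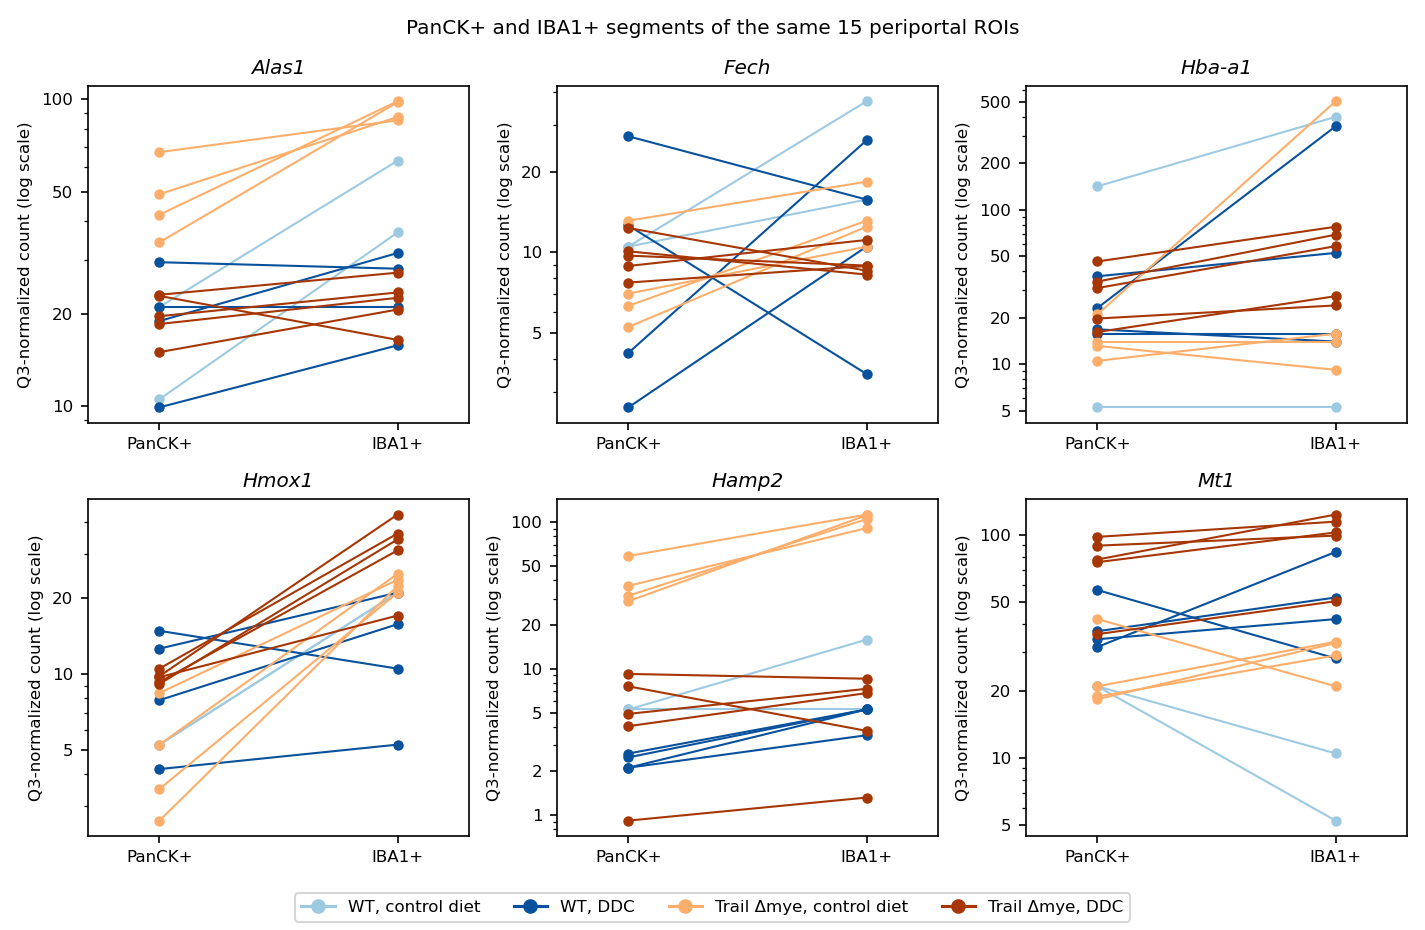
Q3-normalized counts of the 6 genes in the PanCK+ and IBA1+ segment of each of 15 periportal ROIs, on a log axis, with a line joining the segments of an ROI and colours for genotype and diet. Hmox1 lines rise toward IBA1+ in 14 of 15 ROIs, while Hba-a1 lines rise steeply in few ROIs.

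Between periportal and parenchymal IBA1+ segments edgeR called none of the 6 genes (1.12% of all genes were called), and 2 of the 6, Alas1 and Hmox1, had an unadjusted p under 0.05. The difference of Alas1, periportal minus parenchymal, was -0.83 ± 0.23 on the log2 scale (edgeR adjusted p = 0.0553), and it was called with DESeq2 (adjusted p = 0.00257) and with limma (adjusted p = 0.0350). For Hmox1 it was -0.66 ± 0.33 (edgeR adjusted p = 0.840). The change of this difference with diet was called by edgeR for none of the 6 (0.0284% of all genes), where Fech and Hmox1 had an unadjusted p under 0.05, DESeq2 called none and limma called Fech.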

How the data were processed

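Expected counts per gene and segment were analysed as deposited: the authors counted probe reads after 18 PCR cycles, filtered segments and genes on the limit of quantification, and named bcl2fastq and mm10 in the submitters' processing notes; the aligner was not given in the sources used here. Values were rounded to whole numbers (3 genes held fractions) and the negative probe was left out of the tests. Levels are signal values that the authors made by Q3 normalization and deposited. Tests were two-sided quasi-likelihood tests in edgeR 4.0.16 (R 4.3.3) on 10547 genes with upper-quartile factors at the 75th percentile, 1 coefficient per group, 1 fit per segment class, the ROI as a block for PanCK+ against IBA1+ segments and all IBA1+ segments for location, with Benjamini-Hochberg adjustment and calls under 0.05. A standard error is the size of the log2 fold change over the square root of the F value. Same-numbered segments are cut from 1 ROI, so they are paired by design; their deviations from the group means correlated at -0.01 to 0.60 (median 0.01, n = 15), against -0.31 to 0.17 for other pairs. Alternatives were TMM factors, total counts alone, DESeq2 1.42.0, limma 3.58.1 on log2(Q3-normalized count + 1 or 0.5), filterByExpr, counts lowered by 1, thinning, the compared groups alone and leaving out each segment. The single control diet-fed WT parenchymal segment could not be left out, since its group would then be empty. The fitting code was tested on simulated data. Bounds use a floor of 3 counts per segment and cover counting error only. Total counts of 20319 to 836971 limit the precision, and probe reads are not independent molecules. Correlations are Pearson's r of log2 Q3-normalized counts over 38 segments, with the 3 most similar genes named among those above 1 count in at least 19 segments. From each list up to 2 called genes with the highest and 2 with the lowest fold change per diet contrast were named; Gm21783, other Y-linked genes and Fth1 as a fragile call were singled out after their values were seen. Members, lists and tests were chosen with earlier results of these data known. Promoters are RefSeq's; Fech and Hmox1 had no entry among those used. Tnfsf10 was not analysed here. Plots were drawn with matplotlib 3.10.9 in Python 3.11.15.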

Additional observations from a re-analysis of the deposited data

Results flagged for a closer look

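In 5 of 36 gene and group combinations of 4 or 5 segments, the highest or lowest segment lay apart from the others by Dixon's test of the gap over the range; 4 lay high and 1 low. Hba-a1 was at 504 Q3-normalized counts in the periportal IBA1+ segment of ROI 028 of control diet-fed Trail Δmye mice, where the next value was 15.8. Hba-a1 was at 347 in the periportal IBA1+ segment of ROI 009 of DDC-fed WT mice, above 52.5. Mt1 was at 42.0 in the PanCK+ segment of ROI 027 of control diet-fed Trail Δmye mice, above 21.0. Fech was at 11.1 in the periportal IBA1+ segment of ROI 032 of DDC-fed Trail Δmye mice, above 8.92. Hamp2 was at 3.50 in the periportal IBA1+ segment of ROI 013 of DDC-fed WT mice, below 5.25 in the other 3, with all 4 at 1 count, so that this gap is one of scaling factors.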

How the results depend on the processing

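The diet calls of Mt1, Hamp2 and Alas1 in Trail Δmye mice kept their direction under every alternative, and of these only that of Alas1 in PanCK+ segments lost its call. Counts of called genes among the 6 moved as follows. In the mean of genotypes in PanCK+ segments 2 were called with DESeq2, filterByExpr and counts lowered by 1, 3 with limma at either pseudocount, and 1 to 2 without single segments. Between genotypes on the control diet PanCK+ segments had 0 with DESeq2 and after thinning and 2 with filterByExpr, and periportal IBA1+ segments 0 to 2 without single segments. Between genotypes on DDC PanCK+ segments had 1 with filterByExpr and with counts lowered by 1 and 0 to 1 without single segments, and periportal IBA1+ segments 1 with counts lowered by 1. In WT periportal IBA1+ segments the diet comparison had 1 with total counts alone, DESeq2, filterByExpr, limma at either pseudocount, counts lowered by 1 and thinning, and 0 to 1 without single segments. The interaction in periportal IBA1+ segments had 1 with limma at either pseudocount, and the mean of genotypes there 1 to 4 without single segments, with 1 without WT ROI 005. In parenchymal IBA1+ segments 2 were called with total counts alone, DESeq2 and limma at either pseudocount, 4 with filterByExpr and 1 to 2 without single segments. Periportal against parenchymal IBA1+ segments had 1 with DESeq2, filterByExpr and limma at pseudocount 1, and 0 to 1 without single segments, and its change with diet 1 with limma at pseudocount 1. PanCK+ against IBA1+ segments had 1 to 3 without single ROIs, with 1 without ROI 005. Without the replicate block (the pairing by ROI) the same 3 genes were called, Hmox1 at -1.57, Hba-a1 at -1.93 and Alas1 at -0.76, and no call of the 6 genes changed.

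Leaving out single segments turned the sign of Hba-a1 in 14 of 17 comparisons, and of Fech in 5, Hmox1 in 4, Alas1 and Hamp2 in 2 each and Mt1 in 1, none of them called as reported. Among values called before or after, it reversed 2: Hba-a1 in the mean of genotypes in PanCK+ segments (-0.36 to 1.69, the highest without WT ROI 005) and Hbb-b2 on DDC in Trail Δmye periportal IBA1+ segments (-2.42 to 1.03, the highest without ROI 028). The genes called among all 10547 ranged from 85 after thinning to 675 with counts lowered by 1 in the Trail Δmye PanCK+ diet comparison (221 as reported), from 176 after thinning to 1363 with total counts alone in periportal IBA1+ segments (989), and from 246 after thinning to 1364 with limma between PanCK+ and IBA1+ segments (518). Between genotypes on the control diet Hba-a1 was at -1.65 in PanCK+ segments, 1.76 without WT ROI 005 and -2.33 without WT ROI 001 (edgeR adjusted p = 0.0318), and at -0.52 in periportal IBA1+ segments, 4.72 without WT ROI 005 and -3.95 without ROI 028 (edgeR adjusted p = 0.0102). Over all genes the median change in the Trail Δmye PanCK+ diet comparison was 0.18 on the log2 scale, -0.15 with DESeq2 and 0.83 with counts lowered by 1. Where a control group of 2 lost a segment, the lone segment was assumed to vary like the other groups. Counts of 1 to 4 in control diet-fed WT segments limit what can be told of Hamp2, Hmox1 and Mt1 there, and the cause of the changed calls was not tested.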
